A study of Mus musculus with 6 samples.

Results

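The cytosolic ribosomal protein genes are the genes for the proteins that, with ribosomal RNA, build the large and the small subunit of the cytoplasmic ribosome. They were taken from the table of expression values by symbol: every entry named Rpl, Rplp or Rps followed by a number and at most a closing a, x, y or l, leaving out the S6 kinase genes (Rps6k). This gave 77 genes of 13724 entries, 46 of the large subunit (Rpl and Rplp) and 31 of the small subunit (Rps). The data came from wild type C57Bl6/J mice exposed to warmth in 3 numbered warm challenges, and all groups share this treatment, so no result here can be tied to temperature. The anterior hypothalamus was dissected from brain sections of 0.5 mm, and the labels call the source preoptic neurons. Each challenge gave a library of total RNA (the input) and a library of RNA recovered with an antibody against ribosomal protein S6 phosphorylated at sites 244 and 247 (the immunoprecipitate, IP), 3 libraries per group. The method, PhosphoTRAP, rests on the phosphorylation of S6 in active neurons, so that ribosomes of those cells, with the mRNA on them, are captured preferentially. The labels do not say how many mice went into a library or whether the challenges used separate animals, so p-values measure the spread between these libraries only.

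Ribosomal proteins are made in near equal numbers, since each ribosome holds 1 copy of nearly every one of them. Their mRNAs are short and abundant and carry a terminal oligopyrimidine tract (TOP), a run of C and T letters at the very start of the transcript. Through that tract the mTOR pathway, which also drives the kinases that phosphorylate S6, controls how many of these mRNAs are translated. S6 itself, the product of Rps6, is a small subunit protein and the antigen of the pulldown. The pulldown captures the ribosome and whatever mRNA it is reading, and the mRNA that encodes S6 is not itself the target. Many ribosomal protein genes have near-identical processed pseudogenes, and how reads fitting several copies were counted is not given in the sources used here, so single levels carry that uncertainty.

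The starts of several members show the tract, and the windows printed here were chosen because it is the sequence feature known to bring these mRNAs under joint control. Each runs from 25 bases before to 20 bases after the gene start annotated by RefSeq (GRCm38.p6), 5′ to 3′ on the gene's own strand, with the longest run of C and T letters near the start in capitals. They belong to Rps6, to members of the stalk and of both subunits named in the results, and to the paralogs Rps27 and Rps27l.
Rps6 (chr4:86857348-86857392, minus strand): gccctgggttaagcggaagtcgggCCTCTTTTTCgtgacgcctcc
Rplp2 (chr7:141447626-141447670, plus strand): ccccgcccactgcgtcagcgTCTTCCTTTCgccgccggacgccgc
Rpl38 (chr11:114668555-114668599, plus strand): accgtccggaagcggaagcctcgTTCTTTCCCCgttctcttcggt
Rpl18 (chr7:45718046-45718090, plus strand): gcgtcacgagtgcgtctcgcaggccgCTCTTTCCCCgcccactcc
Rps9 (chr7:3704016-3704060, plus strand): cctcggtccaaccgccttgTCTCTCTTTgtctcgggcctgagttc
Rps27 (chr3:90213629-90213673, minus strand): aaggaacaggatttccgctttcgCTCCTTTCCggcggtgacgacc
Rps27l (chr9:66946061-66946105, plus strand): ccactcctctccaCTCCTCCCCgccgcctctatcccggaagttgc
In Rps6 the run CCTCTTTTTC lies across the annotated start, and in Rps27 the run CTCCTTTCC does. In the upstream one of the 2 windows listed for Rps27l the nearest long run, CTCCTCCCC, lies before the start.

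The promoter table held windows of 300 bases for 56 of the 77 members, 67 windows in all. An unbroken run of 8 or more C and T letters between 10 bases before and 30 bases after the start, read on the gene's own strand, was present in 40.3% of the members' windows and in 14.4% of all 32851 windows. Large subunit windows had it in 42.5% and small subunit windows in 37.0%. The letters CCGGAAG, searched on both strands and able to overlap the run through CTTCC, were present in 35.8% of the members' windows against 8.86% of all windows. The letters TATAA, on both strands, were present in 23.9% against 24.9%. These shares describe letters in a window, and an annotated start can lie some bases from the true one. The 27 members with the run had a median log2 fold between IP and input of -0.0046 and the 29 without it -0.030.

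Values are RPKM, read counts scaled to the length of the gene and the size of the library, so levels can be compared between genes. Summed RPKM over all rows was 374708 to 496125 per library, and the relative depth read from the steps of low values was 1 to 1.59, with input 1 set to 1 and the absolute depth unknown. The 10 pan-neuronal markers with values summed to 4298 to 5761 RPKM in input and 3842 to 7381 RPKM in IP. Snap25, a protein of synaptic vesicle release, made up 53.7% to 73.0% of each of these sums. The other 9 summed to 1508 to 1752 RPKM in input and 1779 to 2129 RPKM in IP, ranges that did not overlap. The test used for the members called 0.892% of all genes higher in IP and 3.29% lower. By this test 0 of the 10 neuronal markers passed in either direction, and 8 had a positive fold, against 34.8% of all genes. Stmn2 (log2 fold -0.53) and Elavl4 (-0.19) had negative folds. The 13 oligodendrocyte markers summed to 1159 to 1295 RPKM in input and 395 to 592 RPKM in IP, with 9 of them lower in IP by the test used for the members. The 9 astrocyte markers summed to 309 to 422 RPKM in input and 292 to 316 RPKM in IP. Aldoc made up 61.2% to 79.2% of these sums, and the other 8 summed to 83.0 to 146 RPKM in input and 60.7 to 111 RPKM in IP. Of the 9, 0 passed in either direction and 2 had a positive fold, with a median log2 fold of -0.44. The 9 microglial markers summed to at most 32.6 RPKM, and 1 of 8 endothelial markers had values, below 1 RPKM in every library. The 4 red cell genes summed to 14.1 to 50.3 RPKM in input and 202 to 567 RPKM in IP, with 3 of 3 tested higher in IP. Of 10 genes known to be induced by neuronal activity, 9 were higher in IP and 0 lower, and their median log2 fold was 2.06. The part of other cell types in the members' values was not tested. Among the inputs, which are bulk tissue, fewer cells of a type and less RNA per cell cannot be told apart. An IP holds the RNA recovered by the antibody, so its marker sums against input do not count cells.

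Ribosomal protein genes took a large share of the summed RPKM in both fractions. This share was lowest in input 3 among the inputs and highest in IP 2 among the IPs. RPKM are scaled to gene length, so it is a share of transcripts and not of reads. The members took 10.4%, 9.95% and 5.02% of the summed RPKM of inputs 1, 2 and 3. In IPs 1, 2 and 3 they took 6.82%, 10.2% and 7.68%. Inputs 1 and 2 and IP 2 thus lay close together near the top, input 3 lay lowest, and the ranges of the 2 fractions overlapped. The median member stood at 570.3, 563 and 211 RPKM in the inputs and at 311, 578 and 384 RPKM in the IPs, where IP 2 lay above IPs 1 and 3, which were closer to each other. Every member lay above 20 RPKM in every library, the lowest value being that of Rps27l in input 3 (20.4 RPKM).

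**Figure D1:**
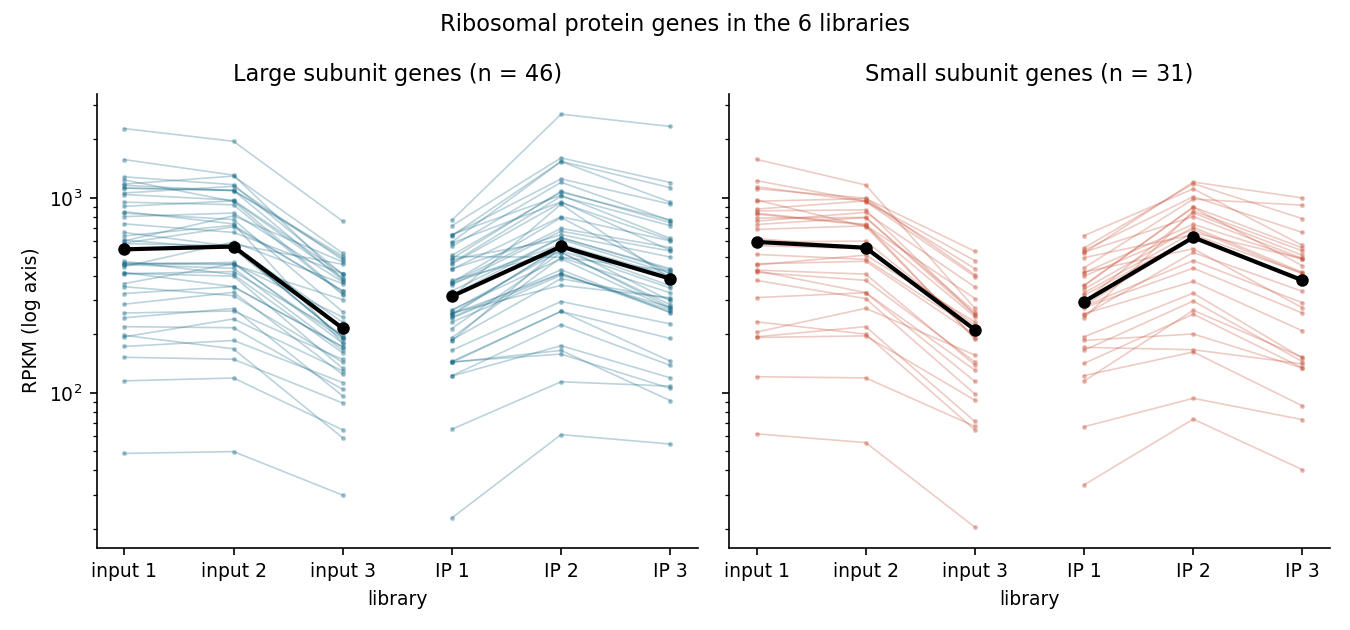
RPKM of each ribosomal protein gene (thin lines join 1 gene's values within a fraction, log axis) in the 3 inputs and 3 IPs, large subunit left and small subunit right, with the median over genes in black. Input 3 is the lowest input for all 77 genes, and IP 2 is above IP 3 for all 77.

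The members moved together between libraries of 1 fraction. Input 3 was the lowest of the 3 inputs for 77 of 77 members, against 37.6% of the 12328 genes tested, and the lowest of all 6 libraries for 61, against 12.5%. On the scale log2(RPKM + 1), the difference of input 3 from the mean of inputs 1 and 2 had a median of -1.32 over the members and a range from -2.32 to -0.29. The same difference had a median of 0.019 over all genes tested. In the IPs the highest library was IP 2 for 75 members and the lowest was IP 1 for 57, against 29.9% and 36.9% of all genes. IP 1 differed from the mean of IPs 2 and 3 by a median of -0.64 over the members and 0.021 over all genes. The relative depth, read from low values, was 1, 1.39 and 1.22 for inputs 1, 2 and 3 and 1.39, 1.59 and 1.39 for IPs 1, 2 and 3. Input 3 thus lay between the other inputs, and IP 2 was the deepest library. The part of depth in the departures was not tested.

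The size of these departures varied among members. Rps29, a zinc-binding small subunit protein, departed most in input 3, standing at 1579.6, 1166 and 271 RPKM in inputs 1, 2 and 3 and at 242, 858 and 536 RPKM in IPs 1, 2 and 3. Its departure on the log2 scale was -2.32 in input 3, taken from the mean of the other inputs, and -1.48 in IP 1, taken from the mean of the other IPs. Rpl39, which lines the exit tunnel of the large subunit, had departures of -2.13 and -0.95, and Rps28, a small subunit protein near the path of the mRNA, of -2.12 and -1.15. At the other end stood Rpl4, also part of the exit tunnel, at 539, 579 and 457 RPKM in inputs 1, 2 and 3 and at 500.2, 497 and 423 RPKM in IPs 1, 2 and 3. Its departures were -0.29 in input 3 and 0.13 in IP 1. Among the other small departures were those of Rpl3, the protein next to the peptidyl transferase centre, with -0.57 and -0.055, and of Rps6, with -0.59 and 0.16. Rpl41, the highest member, had departures of -1.47 in input 3 and -1.70 in IP 1, the latter the lowest of all members. Rpl3, Rpl4, Rpl39 and Rps28 were named after their values had been seen. Across the 77 members the departures of input 3 and IP 1, which share no library, had a Pearson r of 0.37, and across all genes tested 0.18. These are correlations across genes, which are not independent replicates.

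**Figure D2:**
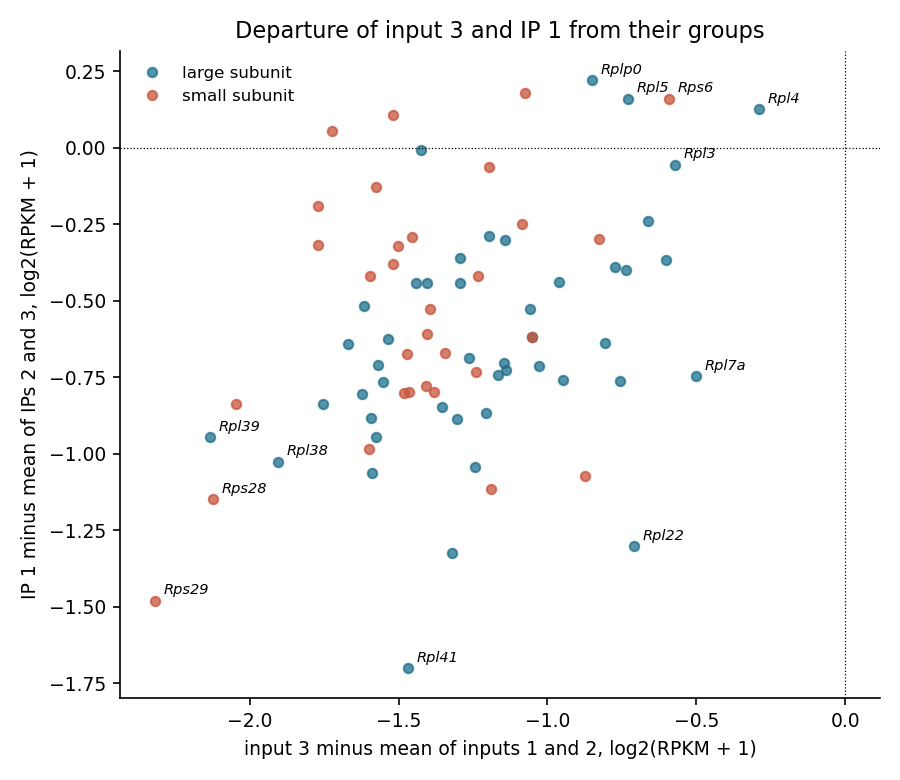
Each point is a ribosomal protein gene, with the departure of input 3 from inputs 1 and 2 on the x axis and that of IP 1 from IPs 2 and 3 on the y axis, both in log2(RPKM + 1). All 77 genes lie left of 0, and Rps29 and Rpl4 mark the extremes of the x axis.

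Transcripts of other multi-subunit complexes were set beside them. In input 3 the median departure was -0.69 for 73 mitochondrial ribosomal protein genes, -1.11 for 73 nuclear-encoded respiratory chain genes and -0.50 for 37 proteasome subunit genes. Input 3 was the lowest input for 68, 63 and 31 of these genes in the same order. In IP 1 the median departure was -0.73, -1.03 and 0.027. Mitochondrial ribosomal and respiratory chain genes were thus low in the same libraries as the cytosolic ribosomal protein genes. Proteasome subunit genes were low in input 3 only, and the differences between the sets were not tested. Among the inputs, the oligodendrocyte and pan-neuronal marker sums were highest in input 3, at 1295 and 5761 RPKM, and the red cell sum was lowest there, at 14.1 RPKM. Snap25 set the pan-neuronal order, and the other 9 markers summed to 1508, 1752 and 1618 RPKM in inputs 1, 2 and 3, highest in input 2. Among the IPs, all 3 sums were lowest in IP 1, at 395, 3842 and 202 RPKM. The part of these cells in the departures was not tested.

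Between IP and input, no ribosomal protein gene differed beyond the spread between libraries. By limma (a moderated linear model fitted to log2(RPKM + 1) over all 12328 genes, two-sided, adjusted p under 0.05), 0 of 77 members were higher and 0 lower in IP, where 0.892% of all genes were higher and 3.29% lower. Of the 516 genes called, 78.7% were lower in IP, and 51.4% of 249 were after median scaling. No member had an unadjusted p under 0.05, against 24.4% of all genes, and the smallest of the members was 0.184. This count of members was 6 without input 3 (smallest adjusted p = 0.190). It was 8 with input 3 and IP 1, the lowest library of each group, both left out (smallest adjusted p = 0.0977). By adjusted p those fits called 39 and 1205 of all genes. Their share of all genes at unadjusted p under 0.05 is not given here, so these counts cannot be read as a trait of the members. For 0 of 77 members did the 3 IPs lie all above or all below the 3 inputs, against 6.85% of all genes above and 23.5% below. When the challenge number entered the model as a block, 0 members passed (smallest adjusted p = 0.202), against 5.32% of all genes.

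The errors of the folds were wide. Member folds ranged from -0.72 to 0.51 with a median of -0.030, and the median over all genes was -0.18. A positive fold was found for 36 members (46.8%), against 34.8% of all genes. The median SE was 0.44 over the members and 0.26 over all genes. The 95% intervals reached from -2.26 (Rps29) to 1.69 (Rplp2), so these tests do not show equal levels in the fractions. Omitting input 3 gave a member median of -0.49, omitting IP 1 gave 0.20 and omitting IP 2 gave -0.30. With input 3 and IP 1 both omitted, an alternative chosen after seeing the data, it was -0.26, and no member passed in any of these fits. After median scaling, which moved the median of all genes from -0.18 to -0.015, it was 0.16.

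**Figure D3:**
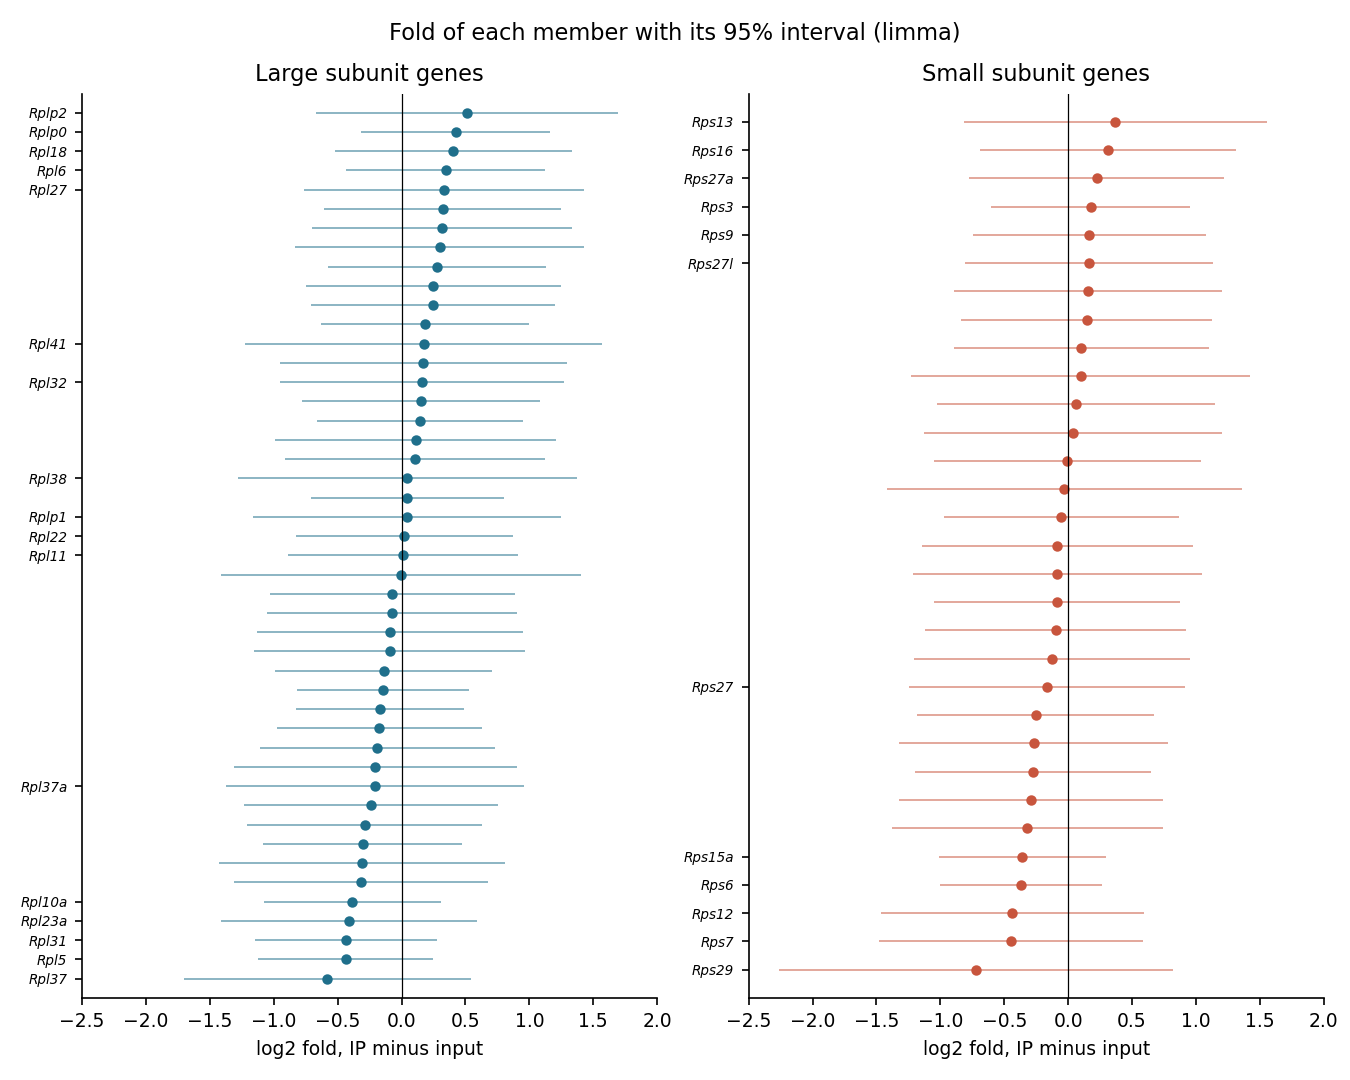
Log2 fold between IP and input for each ribosomal protein gene (points) with its 95% interval from limma (lines), sorted by fold within each subunit, with the genes chosen by the naming rule labelled. Every interval crosses 0, and the folds run from -0.72 for Rps29 to 0.51 for Rplp2.

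The direction of the difference changed with the warm challenge. In challenge 1, 75 of 77 members were lower in IP than in the input of that challenge, with a median difference of -0.85. In challenge 2, 47 were higher and 30 lower, with a median of 0.12. In challenge 3, 73 were higher, with a median of 0.73. Over all genes tested the medians were -0.22, -0.17 and -0.17. Challenge 1 holds IP 1 and challenge 3 holds input 3, the libraries in which the members were lowest within each fraction. A total of 71 members were both lower in IP in challenge 1 and higher in challenge 3 (92.2%), against 22.8% of all genes. Only 6 members kept 1 sign in all 3 challenges, namely Rps6, Rpl3, Rpl4 and Rpl5 lower in IP, Rplp0 higher, and Rpl6, which was level in challenge 1 and higher in the other two, where 6344 of 12328 genes did so.

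**Figure D4:**
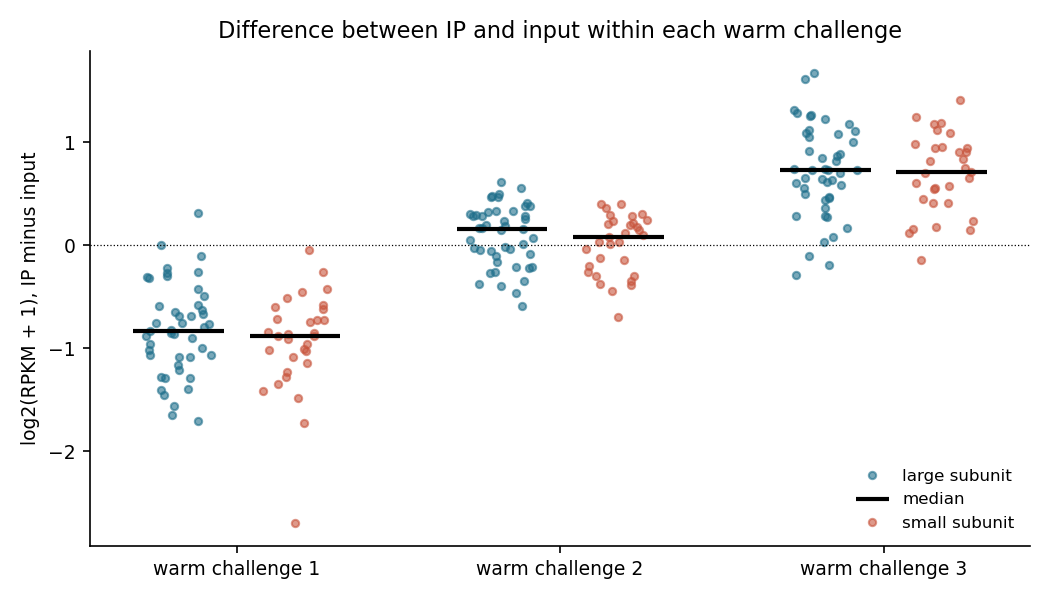
Difference in log2(RPKM + 1) between IP and input of the same warm challenge for each ribosomal protein gene (points), large and small subunit side by side, with medians as black bars. Both subunits lie mostly below 0 in challenge 1, around 0 in challenge 2 and mostly above 0 in challenge 3.

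The large and small subunit genes had medians that lay close together, and no test was made between them. Their median log2 folds were 0.017 and -0.084, with 24 of 46 and 12 of 31 members above 0. After quantile normalization the medians were -0.057 for the large and -0.11 for the small subunit. Within challenges the large subunit medians were -0.83, 0.16 and 0.73, and the small subunit medians -0.88, 0.083 and 0.71. The large subunit median was the higher one in each challenge, by less than 0.1. The difference between the subunits was 0.10 over the 6 libraries and -0.055 without input 1.

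The summed RPKM of the 46 large subunit genes was 1.53 to 1.84 times that of the 31 small subunit genes. The larger number of genes alone raises this ratio above 1. The median large subunit gene stood at 545, 564 and 214 RPKM in inputs 1, 2 and 3 and at 313, 564 and 385 RPKM in IPs 1, 2 and 3. The median small subunit gene stood at 595, 556 and 211 RPKM and at 294, 628 and 378 RPKM in the same order. The ratio of the sums was 1.53, 1.60 and 1.78 in inputs 1, 2 and 3 and 1.63, 1.70 and 1.84 in IPs 1, 2 and 3. It was higher in the IP of each challenge than in its input, while the ranges of the fractions overlapped. Challenge 3 gave the highest ratio in both fractions. In challenge 3 this order rested on 1 gene, Rpl41, which encodes the very short peptide between the subunits and took 3.94% of the members' sum in input 3 and 6.93% in IP 3. Without Rpl41, an alternative chosen after seeing the data, the ratios were 1.41, 1.49 and 1.67 in the inputs and 1.55, 1.56 and 1.64 in the IPs, so that challenge 3 turned.

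**Figure D5:**
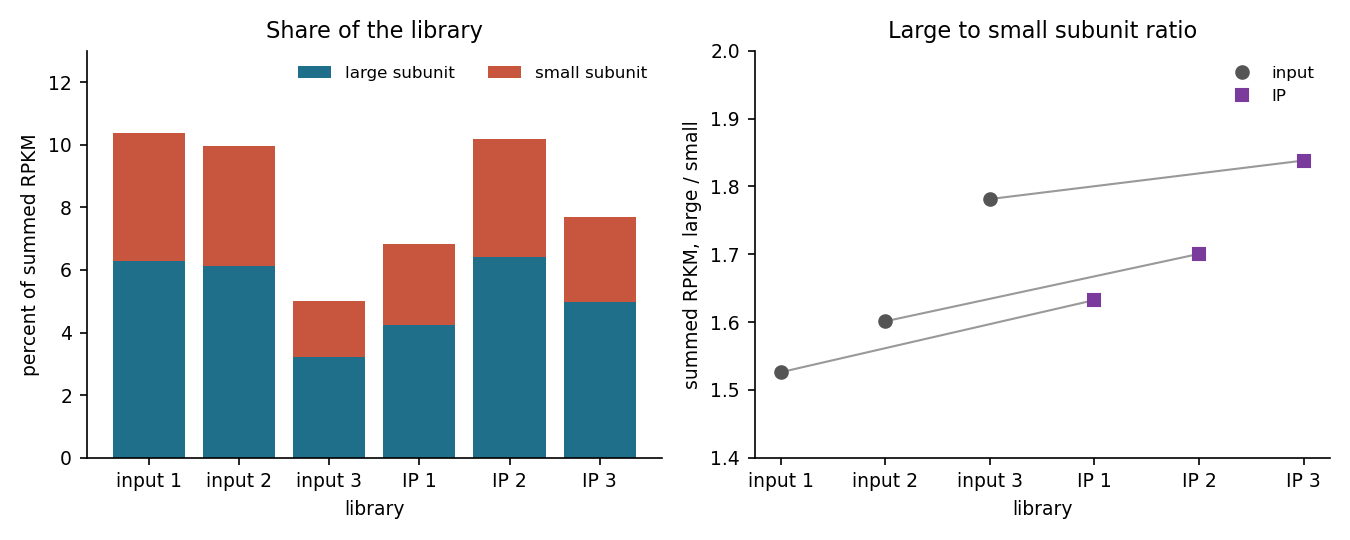
Left, share of the summed RPKM taken by large and small subunit genes in each library (bars, percent). Right, ratio of summed RPKM of the 46 large to the 31 small subunit genes (points, axis from 1.4), with grey lines joining input and IP of the same challenge. The share is lowest in input 3, and the ratio is higher in the IP of each challenge.

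Rps6, whose product is the antigen of the pulldown, stood at 205, 272 and 156 RPKM in inputs 1, 2 and 3 and at 171, 166 and 141 RPKM in IPs 1, 2 and 3. The IPs lay close together, and IP 1 was above input 3, so the groups overlapped. The mean was 211 ± 57.8 RPKM over the inputs and 159 ± 16.3 RPKM over the IPs (SD, n = 3 each), a difference that limma did not call (log2 fold -0.37, SE 0.28, adjusted p = 0.460, 95% interval -1.01 to 0.26). Its within-challenge differences of -0.26, -0.70 and -0.15 were all negative, and it was the only small subunit gene with 1 sign throughout.

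The P-stalk is the flexible arm of the large subunit that recruits elongation factors, and its 3 genes had positive folds that did not pass, although that of Rplp1 turned without input 3 (-0.54), without IP 2 (-0.22) and with quantile normalization (-0.014). Rplp0, the stalk base, stood at 115, 119 and 64.5 RPKM in inputs 1, 2 and 3 and at 143, 165 and 91.2 RPKM in IPs 1, 2 and 3. Each IP exceeded the input of its own challenge, though IP 3 lay below inputs 1 and 2 (log2 fold 0.42, SE 0.33, adjusted p = 0.468). Rplp2, a stalk tip protein, stood at 1161, 1092 and 377 RPKM in inputs 1, 2 and 3 and at 720.5, 1607 and 1200.2 RPKM in IPs 1, 2 and 3. It had the highest positive fold of the members (log2 fold 0.51, SE 0.53, adjusted p = 0.594), yet IP 1 lay below inputs 1 and 2, and the fold was -0.013 without input 3. Rplp1, its partner at the tip, stood at 1239, 959.7 and 323 RPKM in inputs 1, 2 and 3 and at 507, 1071 and 771 RPKM in IPs 1, 2 and 3 and differed less (log2 fold 0.041, SE 0.54, adjusted p = 0.977).

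Rpl5 and Rpl11 bind the smallest ribosomal RNA of the large subunit and, when free, the p53 regulator Mdm2. Rpl5 stood at 194, 239 and 129 RPKM in inputs 1, 2 and 3 and at 144, 158 and 105 RPKM in IPs 1, 2 and 3. It was lower in the IP of each challenge, with log2 differences of -0.42, -0.60 and -0.30, and had the smallest p-value of the members without being called (log2 fold -0.44, SE 0.31, adjusted p = 0.415). Rpl11 stood at 587, 711 and 334 RPKM in inputs 1, 2 and 3 and at 368, 698 and 556 RPKM in IPs 1, 2 and 3. Its fractions were nearly level (log2 fold 0.011, SE 0.40, adjusted p = 0.992), with a 95% interval of -0.89 to 0.91.

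Among the other large subunit genes the lowest fold was that of Rpl37, a zinc-binding protein, at 836, 775 and 261 RPKM in inputs 1, 2 and 3 and at 254, 559.9 and 354 RPKM in IPs 1, 2 and 3 (log2 fold -0.58, SE 0.50, adjusted p = 0.514). Input 3 and IP 1 were nearly level at the bottom. Rpl31 (-0.44) and Rpl23a (-0.41), both at the rim of the exit tunnel, and Rpl10a (-0.39), the protein of the mobile stalk at the exit site for transfer RNA, had the next lowest log2 folds, with adjusted p from 0.436 to 0.617. On the high side stood Rpl18 (0.40), Rpl6 (0.34) and Rpl27 (0.33), with adjusted p from 0.586 to 0.720. Without input 3 these folds were -0.028, 0.10 and -0.18, so that Rpl18 and Rpl27 turned, and without IP 2 Rpl27 turned too (-0.0093). Rpl6 had nearly equal values in challenge 1 (364 RPKM in input and 364 RPKM in IP). Of the 9 exit tunnel genes on the list, 0 passed in either direction, where 0.892% of all genes were higher and 3.29% lower. A count of 0 in so short a list is near that share. Of the 9, 3 had a positive fold, and Rpl17 (-0.29) followed Rpl31 and Rpl23a in size.

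Among small subunit genes Rps29 had the lowest fold (log2 fold -0.72, SE 0.69, adjusted p = 0.560), with groups that overlapped widely. Rps7 (-0.45), Rps12 (-0.44), a protein of the beak of the small subunit, and Rps15a (-0.36) followed Rps29 and, with Rps6, made up the 5 lowest log2 folds. Rps13 had the highest fold of the small subunit, standing at 859, 869 and 253 RPKM in inputs 1, 2 and 3 and at 641, 1115 and 571 RPKM in IPs 1, 2 and 3 (log2 fold 0.37, SE 0.53, adjusted p = 0.712). Input 3 was its lowest library and IP 2 its highest, and the fold was -0.22 without input 3. Rps16 (0.31), Rps27a (0.22), which is made as a fusion with ubiquitin, Rps3 (0.18), which lines the entry channel of the mRNA, and Rps9 (0.16) came next, with adjusted p from 0.713 to 0.845. Without input 3 all 4 turned, to -0.15, -0.28, -0.18 and -0.19, and without IP 2 Rps27a (-0.069) and Rps9 (-0.12) did. Of 7 genes on the path of the mRNA, 0 passed, near the share of all genes (0.892% higher and 3.29% lower), and 4 had a positive fold.

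Because the whole set shifted between libraries, each member was also read against the median member of its challenge. A total of 15 members lay above that median in all 3 challenges and 13 below it. Above it in every challenge were Rplp2, by 0.17, 0.44 and 0.94 on the log2 scale in challenges 1, 2 and 3, Rpl18, by 0.63, 0.27 and 0.32, and Rps13, by 0.43, 0.24 and 0.45. Below it were Rps12, with differences of -0.56, -0.42 and -0.32, Rpl37, with -0.86, -0.59 and -0.28, and Rpl23a, with -0.44, -0.33 and -0.45. The remaining 49 members changed side. Of the 15 above, 10 belonged to the large and 5 to the small subunit, and of the 13 below, 7 and 6. This reading was added after the values had been seen and was not tested.

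The order of levels was largely shared by the fractions, with an r of 0.97 between log2 mean RPKM in input and in IP across the 77 members, whose fractions come from the same challenges. Rpl41 was the highest member in each of the 6 libraries and stood at 2273, 1954 and 761 RPKM in inputs 1, 2 and 3 and at 769, 2694 and 2329 RPKM in IPs 1, 2 and 3. IP 1 and input 3 were nearly level at the bottom, and IPs 2 and 3 lay above every input. Next in mean input level came Rpl38, known for its role in translating patterning genes in the embryo, with 1089 ± 625 RPKM over the inputs and 1028 ± 477 RPKM over the IPs (SD, n = 3 each). Rps29, Rpl32 and Rpl37a followed, at 1006, 998 and 953 RPKM in input, and the SDs of these 5 genes, 418 to 797 RPKM, overlapped throughout. Rps29 ranked 3 of 77 in input and 23 of 77 in IP, and Rplp2 ranked 10 and 2.

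The lowest members were Rpl22 and Rps27l. Rpl22, an RNA-binding protein of the large subunit that has a close paralog, stood at 48.8, 49.9 and 29.8 RPKM in inputs 1, 2 and 3 and at 22.8, 61.0 and 54.6 RPKM in IPs 1, 2 and 3. Its paralog Rpl22l1, outside the symbol rule, stood at 699, 512 and 153 RPKM in inputs 1, 2 and 3 and at 381, 825 and 364 RPKM in IPs 1, 2 and 3, above Rpl22 in all 6 libraries. Rps27l stood at 61.6, 55.5 and 20.4 RPKM in inputs 1, 2 and 3 and at 33.7, 73.3 and 40.3 RPKM in IPs 1, 2 and 3, while its paralog Rps27 stood at 1228, 965 and 477 RPKM in inputs 1, 2 and 3 and at 438, 987 and 919 RPKM in IPs 1, 2 and 3. Both pairs kept their order in every library, and the folds of Rps27 (log2 fold -0.17, SE 0.48, adjusted p = 0.868) and Rps27l (log2 fold 0.16, SE 0.43, adjusted p = 0.858) did not pass. Rplp0, Rps15a and Rpl31 made up the 5 lowest mean input levels with 99.6, 102 and 129.8 RPKM.

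Ribosomal protein genes outside the symbol rule and other genes of the pathway were not called either. Of 7 further ribosomal genes with values, 0 passed in either direction, where 0.892% of all genes were higher and 3.29% lower. A count of 0 in so short a list is near that share. Fau, which encodes a ubiquitin-like protein fused to a small subunit protein, had the largest fold, at 70.5, 66.4 and 14.5 RPKM in inputs 1, 2 and 3 and at 93.1, 173 and 72.3 RPKM in IPs 1, 2 and 3 (log2 fold 1.33, SE 0.56, adjusted p = 0.185). Its 3 IPs lay above its 3 inputs, IP 3 narrowly, as they did for 6.85% of all genes. Input 3 was far below the other libraries. Its unadjusted p was 0.0412. Rpl7l1, a factor related to Rpl7, stood at 28.8, 24.9 and 16.0 RPKM in inputs 1, 2 and 3 and at 17.9, 15.1 and 12.3 RPKM in IPs 1, 2 and 3 (log2 fold -0.57, SE 0.27, adjusted p = 0.224). Rpl22l1 had a log2 fold of 0.35 (adjusted p = 0.751). In all 7, input 3 was the lowest input.

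Other mRNAs known to carry a TOP start, for elongation and initiation factors and partners of translation, numbered 16, of which 0 passed. Of all genes 0.892% were higher and 3.29% lower, so a count of 0 in lists of this length is near the share of all genes. The largest log2 folds were those of the elongation factor subunits Eef1g (-0.78, adjusted p = 0.125) and Eef1b2 (-0.71, adjusted p = 0.163) and of the initiation factor Eif4b (-0.62, adjusted p = 0.138). Eef1g stood at 365, 430.0 and 308 RPKM in inputs 1, 2 and 3 and at 235, 215 and 187 RPKM in IPs 1, 2 and 3. Its 3 IPs lay below its 3 inputs, as they did for 23.5% of all genes. The median fold of this list was -0.17, and input 3 was the lowest input for 13 of 16, with a median departure of -0.54. Of 29 factors that transcribe ribosomal RNA or process and assemble ribosomal particles, 0 passed, with a median fold of 0.12. The largest were Rrp12, an export factor of the small subunit (0.71, adjusted p = 0.0936), Fbl, the methyltransferase fibrillarin (0.60, adjusted p = 0.162), and Nip7 (-0.52, adjusted p = 0.187). For these factors input 3 was the lowest input in 15 of 29, with a median departure of -0.12, where all 77 ribosomal protein genes were lowest there. So were 68 of 73 mitochondrial ribosomal, 63 of 73 respiratory chain and 31 of 37 proteasome subunit genes. The differences between these lists were not tested.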

How the data were processed

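Hypothalamic RNA of warm-exposed mice was sequenced as 3 inputs and 3 IPs. The authors deposited linear RPKM, 1 unpooled column for each library (per the file headers). Genes refer to mm9, a build named by the submitters' processing notes, while neither an aligner nor a counter nor an annotation is given in the sources used here. All listed values exceed 0.1, the smallest being 0.101, and RPKM hold no absolute depth. All 77 members passed the filter of at least 1 RPKM in 3 or more libraries. Folds are differences in log2(RPKM + 1) and understate changes of low genes. limma 3.58.1 (R 4.3.3, mean-variance trend) was fitted to 12328 genes over 6 libraries without a block, with Benjamini-Hochberg adjustment over all of them, and was tested on simulated data. Plots used Python 3.11.15 and matplotlib 3.10.9.

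The labels tie input and IP to 1 challenge number, taken as the pairing. Deviations from group means correlated within numbers by 0.05, 0.61 and 0.27 across genes, and between numbers by -0.52 to 0.18. Input 1 correlated more with IP 2 (0.16) than with IP 1, and IP 1 more with input 3 (0.18) than with input 1. For challenge 1 the pairing thus rests on the labels alone. No score over members was tested. The text names Rps6, the stalk genes, Rpl5 and Rpl11, the 5 highest and lowest folds per subunit, the 5 highest and lowest input means, paralogs, and up to 3 genes of each pathway list. Members and lists were chosen with earlier results of these data known. Alternatives were the pseudocount, filter, scaling, trend, block and omission of each library. Sequences are from RefSeq (GRCm38.p6), and share no coordinates with the RPKM table. Motifs and their windows were chosen after the RPKM had been seen.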

Additional observations from a re-analysis of the deposited data

How the results depend on the processing

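The count of members called stayed at 0 in each direction under every alternative run, among them pseudocounts of 0.1 and 5, no filter or one of 5 RPKM, no trend, the replicate block and each omission. For all genes the count of 516 (78.7% lower in IP) became 249 with median scaling (51.4% lower), 253 with quantile normalization (49.0% lower), 656 with the block, 21 to 1693 without 1 library (1693 without IP 1) and 1205 with input 3 and IP 1 both left out. The median member fold lay between -0.49 and 0.20 over the omissions, turned positive after median scaling (0.16, with the median of all genes moving from -0.18 to -0.015), and was -0.089 after quantile normalization. Large minus small subunit median fold lay between -0.055 and 0.15. Of the named members, which were never called, 17 changed sign in at least 1 omission, with log2 folds of -0.54 to 0.43 (Rplp1), -0.013 to 0.83 (Rplp2), -0.30 to 0.26 (Rpl11), -0.028 to 0.67 (Rpl18), -0.23 to 0.46 (Rpl22), -0.18 to 0.60 (Rpl27), -0.25 to 0.51 (Rpl32), -0.74 to 0.091 (Rpl37a), -0.59 to 0.43 (Rpl38), -0.32 to 0.74 (Rpl41), -0.18 to 0.36 (Rps3), -0.19 to 0.38 (Rps9), -0.22 to 0.67 (Rps13), -0.15 to 0.58 (Rps16), -0.57 to 0.20 (Rps27), -0.28 to 0.52 (Rps27a) and -0.33 to 0.45 (Rps27l). Median scaling turned Rps27 (0.023). Quantile normalization turned Rplp1 (-0.014), Rpl11 (-0.080), Rpl32 (-0.017) and Rpl38 (-0.15). With input 3 and IP 1 both left out, Rplp1 (-0.26), Rpl11 (-0.051), Rpl38 (-0.25), Rps3 (-0.24), Rps13 (-0.11), Rps27a (-0.16) and Rps27l (-0.10) turned. The block left every fold as it was and changed no call of a member. The cause of these changes was not tested.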
